A study of Mus musculus with 2 samples.

Results

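The genes described here encode 8 mediators and receptors through which regulatory T (Treg) cells restrain other immune cells or help tissue to heal. They are Il10, Ebi3, Il12a and Fgl2, which encode suppressive cytokines, cytokine chains or secreted proteins, Areg and Penk, which are linked to tissue repair and to opioid peptides, and Il10ra and Il10rb, the chains of the interleukin-10 (IL-10) receptor. Each was taken by its symbol from a deposited table of FPKM values, which are fragment counts scaled to gene length and to the size of the library, and all 8 were found among its 41592 genes. They were picked by name and function, with earlier results of these data known.

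The study measured transcripts by RNA-seq in CD4+ cells from spleen and lymph nodes of C57BL/6 mice that were 6 to 8 weeks old. Both groups had the genotype Foxp3 dCNS1-Cre-R26-YFP and both were sorted as YFP-positive. In this genotype Foxp3 regulatory DNA without CNS1, a conserved noncoding element of the locus, drives Cre, and a Rosa26 reporter turns on YFP in cells that have had Cre and in their progeny. The groups, named Thy1.1-YFP+ and Thy1.1+YFP+ after their titles, differed in staining for Thy1.1. The labels do not say what carries the Thy1.1 mark or how many mice were pooled. The series compares thymus-derived Treg cells with precursors of cells that have lost Foxp3, but its design text assigns the same markers to both, so the sort markers serve as names. With 1 library a group, replicate error could not be estimated and no p-value is given. Depth was close, with 18536339 counted reads behind the Thy1.1-YFP+ values and 18600581 behind the Thy1.1+YFP+ values. Intervals in parentheses are 95% intervals for counting error only.

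IL-10 is a cytokine that dampens antigen presentation and inflammatory cytokine production, and mice whose Treg cells lack it develop inflammation at mucosal surfaces. EBI3 pairs with the product of Il12a to form IL-35, and with other chains to form other members of the IL-12 family. Amphiregulin, the product of Areg, is a ligand of the epidermal growth factor receptor and is produced by Treg cells of injured tissue. Penk encodes proenkephalin, the precursor of the enkephalin peptides, and is transcribed by Treg cells.

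Upstream windows of 3 members are shown first, because they belong to a pair of chains of the same cytokine that were read at very different levels (Ebi3 and Il12a) and to a mediator read at nearly the same level in both libraries (Areg). They are the 250 bases before the annotated start, from RefSeq on GRCm38.p6, 5′ to 3′, and such windows were found for 4 of the 8 members. Capitals mark matches on either strand to 4 motifs picked for this description, which were TATAAA, known as the core promoter box, the cAMP response element TGACGTCA, the AP-1 site TGANTCA, and GGGCGG, known as the GC box. No letters overlapped between matches in these windows.
Areg (chr5:91139349-91139598, plus strand): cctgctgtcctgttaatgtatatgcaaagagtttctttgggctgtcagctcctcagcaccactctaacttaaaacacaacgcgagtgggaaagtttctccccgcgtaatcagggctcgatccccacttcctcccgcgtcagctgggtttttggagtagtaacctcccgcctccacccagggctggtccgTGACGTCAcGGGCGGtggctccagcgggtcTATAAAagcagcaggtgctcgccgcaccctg
Ebi3 (chr17:55952373-55952622, plus strand): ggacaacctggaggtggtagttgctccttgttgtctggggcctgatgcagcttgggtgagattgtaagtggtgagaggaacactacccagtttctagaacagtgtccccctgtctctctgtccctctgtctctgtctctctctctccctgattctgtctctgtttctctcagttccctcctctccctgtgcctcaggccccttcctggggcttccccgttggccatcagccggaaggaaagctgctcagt
Il12a (chr3:68690394-68690643, plus strand): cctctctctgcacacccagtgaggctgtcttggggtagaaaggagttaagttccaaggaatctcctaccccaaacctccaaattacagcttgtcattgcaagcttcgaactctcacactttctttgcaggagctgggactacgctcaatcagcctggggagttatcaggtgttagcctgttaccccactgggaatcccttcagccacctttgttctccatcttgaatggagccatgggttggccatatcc
The Areg window held TATAAA from base 31 before the start, TGACGTCA from base 61 and GGGCGG from base 52. Of 32851 upstream windows of the same length, 12.4% held TATAAA, 1.55% TGACGTCA, 6.75% TGANTCA and 32.7% GGGCGG. The Ebi3 window and the Il12a window printed here held none of the 4. A further Il12a start had a window, not printed, with GGGCGG from base 120. The Fgl2 window, not printed, held TGANTCA from base 16 and GGGCGG from base 44. Such matches are letters in a window and were not tested for any effect.

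Of the 8 genes, Penk and Il10 were the ones furthest apart between the libraries, and they differed in opposite directions. Penk was lower and Il10 was higher in the Thy1.1-YFP+ library, while Areg, Fgl2, Ebi3 and Il10ra had intervals of the ratio that included 1. Il12a was represented by 1 read in each library. Differences were judged by size alone: a gene was counted as past 2-fold if its log2(FPKM + 1) values were 1 or more apart, and it was assessed only if its FPKM averaged 1 or more. Adding 1 before the logarithm shrinks differences of genes with low values. By this rule 7 of the 8 members could be assessed, and 0 were 2-fold higher or more in Thy1.1-YFP+ cells and 0 were 2-fold lower or more. Among all 12820 genes assessed, 1.93% were higher and 1.15% were lower by this rule. The 7 members had a median difference of -0.04 on that log2 scale, beside 0.03 for all assessed genes. The scale itself bears on small differences: rescaling the libraries by the upper quartile of their values above 0 moved the median of all assessed genes up by 0.23, to 0.26.

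**Figure D1:**
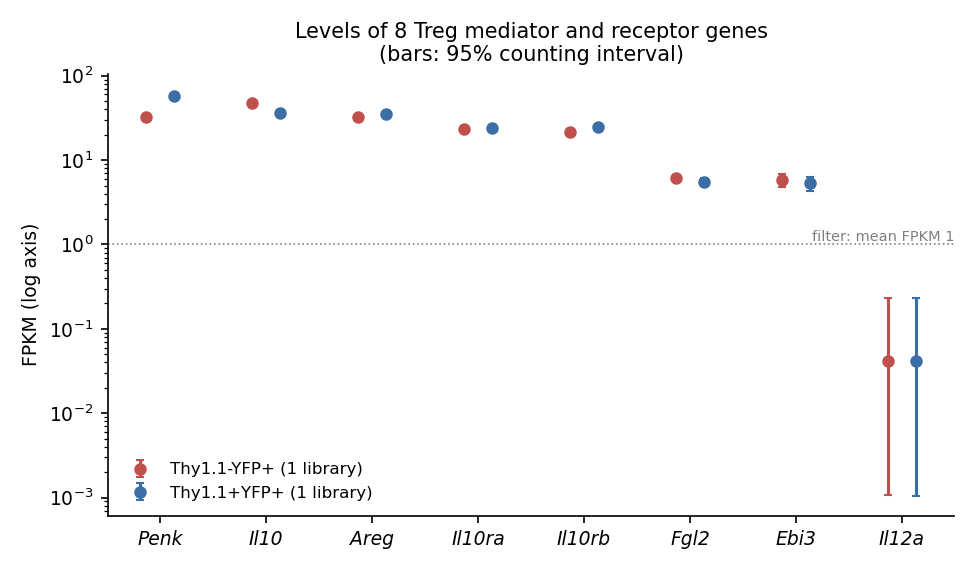
FPKM (log axis) of the 8 genes in the Thy1.1-YFP+ library (red) and the Thy1.1+YFP+ library (blue), with bars for the 95% counting interval and a dotted line at the mean FPKM of 1 used as a filter. Penk is highest in the Thy1.1+YFP+ library at 57.9 FPKM, Il10 in the Thy1.1-YFP+ library at 48.1 FPKM, and Il12a lies near 0.042 FPKM in both.

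Il10, which encodes the cytokine itself, stood at 48.1 FPKM in the Thy1.1-YFP+ library and 35.8 FPKM in the Thy1.1+YFP+ library, from 1169 and 873 reads. The Thy1.1-YFP+ library held the higher level, by 1.34-fold (1.23 to 1.47), and the counting intervals of the FPKM values, 45.4 to 50.98 and 33.5 to 38.3, did not overlap. On the log2(FPKM + 1) scale the difference was 0.42, and 10.5% of assessed genes had a higher value, sign included. It was 0.67 after rescaling by the upper quartile, which is 0.41 above the median gene, against 0.39 above it with the deposited values. In bulk RNA, fewer cells that transcribe a gene and less of its RNA per cell cannot be told apart, for Il10 or for the other members.

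Penk, the enkephalin precursor gene, stood at 32.3 FPKM in the Thy1.1-YFP+ library and 57.9 FPKM in the Thy1.1+YFP+ library, from 650 and 1169 reads. Here the Thy1.1+YFP+ library held the higher level, by 1.79-fold (1.63 to 1.98). The log2 difference of -0.82 lay inside the 2-fold rule and past a 1.5-fold rule, and 2.02% of assessed genes had a lower value. After rescaling by the upper quartile it was -0.57, which is -0.83 from the median gene, against -0.85 with the deposited values. Within a library, the FPKM of Il10 was 1.49 times that of Penk in Thy1.1-YFP+ cells and 0.619 times that of Penk in Thy1.1+YFP+ cells. With gene lengths taken as summed annotated exons, a setting added after seeing the data, these ratios were 2.24 and 0.931. With summed exons Penk stood at 38.5 FPKM and Il10 at 35.8 FPKM in the Thy1.1+YFP+ library. The counting interval of Il10 there, 33.5 to 38.3, nearly reached the Penk value, which has counting error of its own. With that length the order of Penk and Il10 in this library was therefore not settled. The size of the lead of Penk rests mostly on the length used for it.

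**Figure D2:**
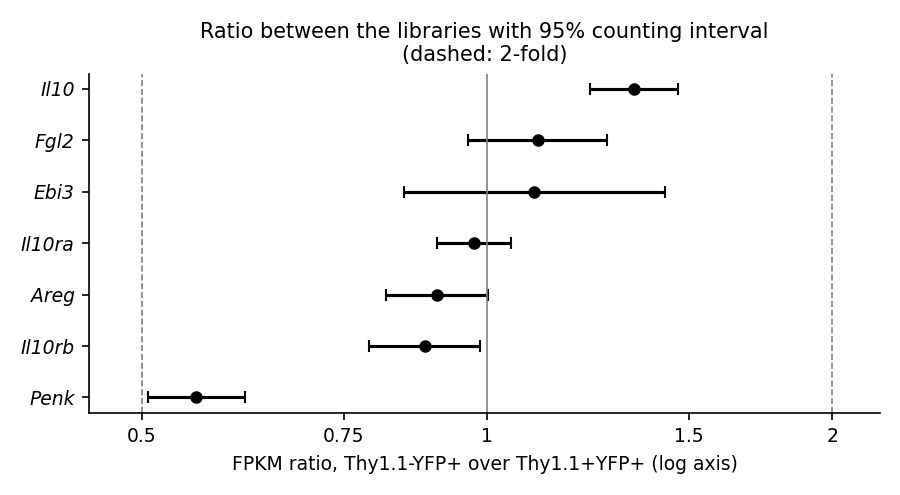
Ratio of FPKM in the Thy1.1-YFP+ library over the Thy1.1+YFP+ library (log axis) for the 7 genes that could be assessed, with 95% counting intervals and dashed lines at 2-fold. Il10 lies above 1 at 1.34 and Penk below 1 at 0.558, and neither interval reaches a dashed line.

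Areg, the gene for amphiregulin, stood at 32.3 FPKM in the Thy1.1-YFP+ library and 35.6 FPKM in the Thy1.1+YFP+ library, from 717 and 795 reads. The ratio was 0.905 (0.817 to 1.002), so counting error alone reaches 1. The log2 difference of -0.14 became 0.11 after rescaling by the upper quartile, which moves all genes up, and relative to the median gene it was -0.17 with the deposited values and -0.15 rescaled. Areg stood at 0.998 times the FPKM of Penk in the Thy1.1-YFP+ library and 0.615 times in the Thy1.1+YFP+ library. With summed exons these ratios were 1.48 and 0.915, so which library shows the pair alike depends on the gene length.

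Fgl2 encodes fibrinogen-like protein 2, whose secreted form inhibits antigen-presenting cells. It stood at 6.10 FPKM in the Thy1.1-YFP+ library and 5.51 FPKM in the Thy1.1+YFP+ library, from 428 and 388 reads. The ratio of 1.11 had an interval of 0.963 to 1.27. Ebi3 stood at 5.81 FPKM and 5.28 FPKM in the same order, from 126 and 115 reads, with a ratio of 1.099 (0.847 to 1.43). Both genes were read at a low level in both libraries, and an excess of up to 1.27-fold for Fgl2 or 1.43-fold for Ebi3 lies within counting error.

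Il12a, which encodes the p35 chain that EBI3 needs to form IL-35, had 1 read in each library, at 0.0419 FPKM and 0.0417 FPKM. The ratio of 1.003 had an interval of 0.0128 to 78.8, so a difference in this gene was not detectable at this depth. It was the member below the filter and enters no count.

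Each receptor chain was read at a similar level in both libraries. Il10ra, the chain that binds IL-10, stood at 23.2 FPKM in the Thy1.1-YFP+ library and 23.8 FPKM in the Thy1.1+YFP+ library, from 1388 and 1429 reads. Its ratio was 0.975 (0.905 to 1.05). Il10rb, the accessory chain that the receptors for IL-22 and lambda interferons also use, stood at 21.8 FPKM and 24.7 FPKM in the same order. Its ratio was 0.882 (0.789 to 0.987), from 590 and 671 reads. The log2 differences of Il10ra and Il10rb, -0.04 and -0.17, turned to 0.21 and 0.07 after rescaling by the upper quartile. Relative to the median gene they were -0.07 and -0.20 with the deposited values and -0.05 and -0.18 rescaled. Rescaling a library shifts all genes by nearly the same amount, so these relative values could hardly change.

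Because FPKM is per length, the members can be placed in order. In the Thy1.1-YFP+ library Il10 came first, followed by Penk and Areg, then Il10ra and Il10rb, then Fgl2 and Ebi3, and last Il12a. In the Thy1.1+YFP+ library Penk came first, followed by Il10 and Areg, then Il10rb and Il10ra, then Fgl2 and Ebi3, and last Il12a. Within each of the pairs Penk and Areg, Il10ra and Il10rb, and Fgl2 and Ebi3 in the Thy1.1-YFP+ library the counting intervals of the levels overlapped. In the Thy1.1+YFP+ library they overlapped for Il10 and Areg, Il10rb and Il10ra, and Fgl2 and Ebi3, and all other neighbours were apart. The order depends on the length behind each FPKM value. The values imply 1085 bases for Penk and 1459 bases for Il10rb, whereas the annotated exons sum to 1634 and 3808 bases. With summed exons the levels of Il10rb were 8.36 and 9.47 FPKM, those of Il10ra 21.4 and 21.96 FPKM and those of Penk 21.5 and 38.5 FPKM, in the Thy1.1-YFP+ and Thy1.1+YFP+ libraries. Areg then came ahead of Penk in the Thy1.1-YFP+ library, at 31.8 FPKM, and Il10ra ahead of Il10rb in both. Ratios between the libraries do not change with the length.

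**Figure D3:**
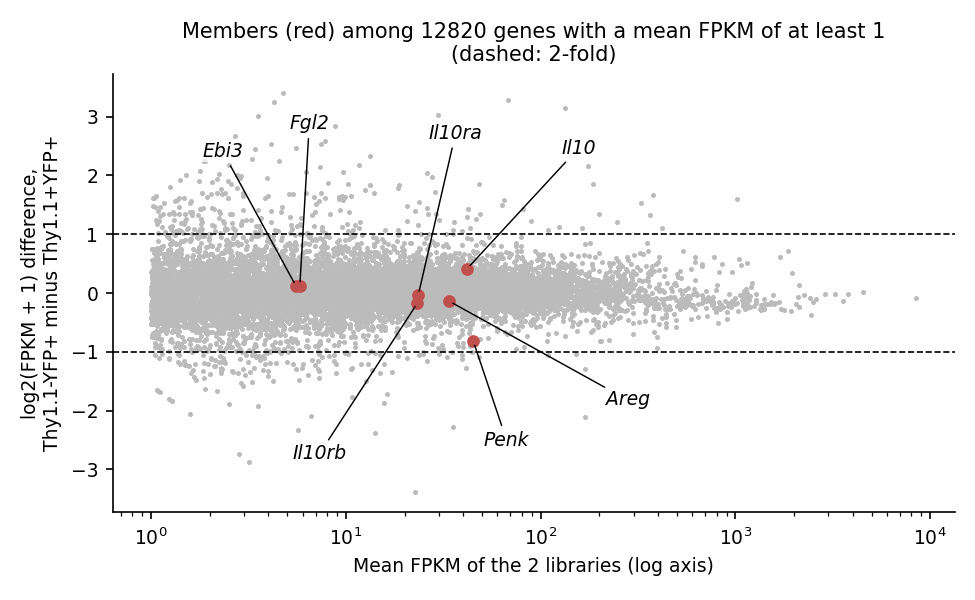
Mean FPKM of the 2 libraries (log axis) against the log2(FPKM + 1) difference, Thy1.1-YFP+ minus Thy1.1+YFP+, for 12820 genes (grey) and the 7 assessed members (red), with dashed lines at 2-fold. Penk lies at -0.82 and Il10 at 0.42, and the other 5 members lie between -0.17 and 0.12.

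The genes nearest to Penk in both libraries, by Euclidean distance in log2(FPKM + 1) among 10656 protein-coding genes, were Bach2, Slc35d1 and Ifngr2. Bach2, a transcriptional repressor that restrains effector differentiation, stood at 32.6 FPKM in the Thy1.1-YFP+ library and 52.7 FPKM in the Thy1.1+YFP+ library, at a distance of 0.135. Slc35d1, a nucleotide sugar transporter gene, stood at 29.02 and 59.3 FPKM, at a distance of 0.154. Ifngr2, which encodes a chain of the interferon-gamma receptor, stood at 35.9 and 52.4 FPKM, at a distance of 0.205. With 2 libraries, this likeness says only that these genes had similar pairs of values.

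Around IL-10, the receptor signals through the kinases JAK1 and TYK2 to STAT3, and SOCS3 is an induced inhibitor of cytokine signalling. Of 15 genes of IL-10 signalling, 3 of them members, 0 were past 2-fold in either direction, and their median difference was -0.04. Jak1 was abundant and nearly level, at 718 FPKM in the Thy1.1-YFP+ library and 697 FPKM in the Thy1.1+YFP+ library, and Tyk2 stood at 31.5 and 26.1 FPKM. Stat3 had the lowest difference of the list, -0.58, at 352 and 527 FPKM. Socs3 stood at 375 and 428 FPKM in the same order. Hmox1, an IL-10-responsive heme oxygenase gene, had the highest difference, 0.78, at 9.69 and 5.25 FPKM.

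Of 15 genes that regulate Il10 transcription, 2 were past 2-fold with the higher value in Thy1.1-YFP+ cells and 0 in the other direction. The 15 had a median difference of 0.25. Of all 12820 assessed genes, 1.93% were 2-fold higher and 1.15% were 2-fold lower. Maf, whose product c-MAF activates Il10 in several T cell subsets, stood at 70.8 FPKM in the Thy1.1-YFP+ library and 27.3 FPKM in the Thy1.1+YFP+ library, a ratio of 2.60 (2.48 to 2.72). Prdm1, which encodes BLIMP-1, a factor needed for IL-10 in effector Treg cells, stood at 15.01 and 6.62 FPKM, a ratio of 2.27 (2.02 to 2.55). Both were higher in the same library as Il10. By sign alone, 10 of the 15 were higher there and 5 were lower, beside 55.15% higher and 44.85% lower among all assessed genes. Among the 5 were Stat3 and Gata3, with ratios of 0.667 and 0.782. Any bearing of these genes on Il10 was not tested. Batf, an AP-1 family factor of effector Treg cells, stood at 56.6 and 34.7 FPKM, a ratio of 1.63 (1.47 to 1.81) that lay inside the 2-fold rule. Bach2, described above, had the lowest difference of this list, -0.68. With a pseudocount of 5 the difference of Prdm1 was 0.78 and no longer 2-fold.

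The other cytokine chains of the IL-12 family were scarce as well. Il12b, the p40 chain, had 9 and 5 reads in the Thy1.1-YFP+ and Thy1.1+YFP+ libraries, Il23a 4 and 9 reads, and Il27 1 and 2 reads. None of these 3 ratios had an interval that left out 1. Of the receptors, Il23r was also below the filter, with 24 and 11 reads, a ratio of 2.19 (1.03 to 4.95). Among the assessed genes Il6st, which encodes gp130, had the lowest difference, -0.20, at 168 and 194 FPKM, and Il12rb1 the highest, 0.63, at 17.2 and 10.8 FPKM. Il12rb2 stood at 1.48 and 1.61 FPKM and Il27ra at 69.3 and 61.4 FPKM. Of the 10 chains and receptors of the IL-12 family, 5 could be assessed and 0 were 2-fold apart in either direction, with a median of 0.12.

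Amphiregulin is made as a membrane protein that the protease ADAM17 releases. Adam17 stood at 45.2 FPKM in the Thy1.1-YFP+ library and 33.2 FPKM in the Thy1.1+YFP+ library, a ratio of 1.36 (1.28 to 1.45). Egfr, the receptor gene, had 11 and 9 reads. Of 16 genes of the epidermal growth factor family and its processing, 7 could be assessed and 0 were 2-fold apart in either direction, with a median of 0.33. Among the assessed genes Erbb3, a receptor of the family, had the highest difference, 0.45, at 3.13 and 2.03 FPKM. Rhbdf1, a rhomboid-like regulator of ADAM17, had the lowest, -0.40, at 2.82 and 4.03 FPKM. Erbb2, another receptor gene, was below the filter with 53 and 10 reads, a ratio of 5.32 (2.68 to 11.7).

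Proenkephalin is cut into enkephalins by prohormone convertases, and the peptides act on opioid receptors. Of 16 genes of opioid peptides, their processing and their receptors, 7 could be assessed and 0 were 2-fold apart in either direction, with a median of -0.14. Among these Penk itself had the lowest difference and Ctsl, a lysosomal protease gene, the highest, 0.30, at 7.03 and 5.54 FPKM in the Thy1.1-YFP+ and Thy1.1+YFP+ libraries. Pcsk1, a convertase gene, had 15 and 5 reads, a ratio of 3.01 (1.04 to 10.6). Oprm1, the mu opioid receptor gene, stood at 2.75 and 3.36 FPKM, and Oprd1, the delta receptor gene, was listed at 0 in both libraries.

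**Figure D4:**
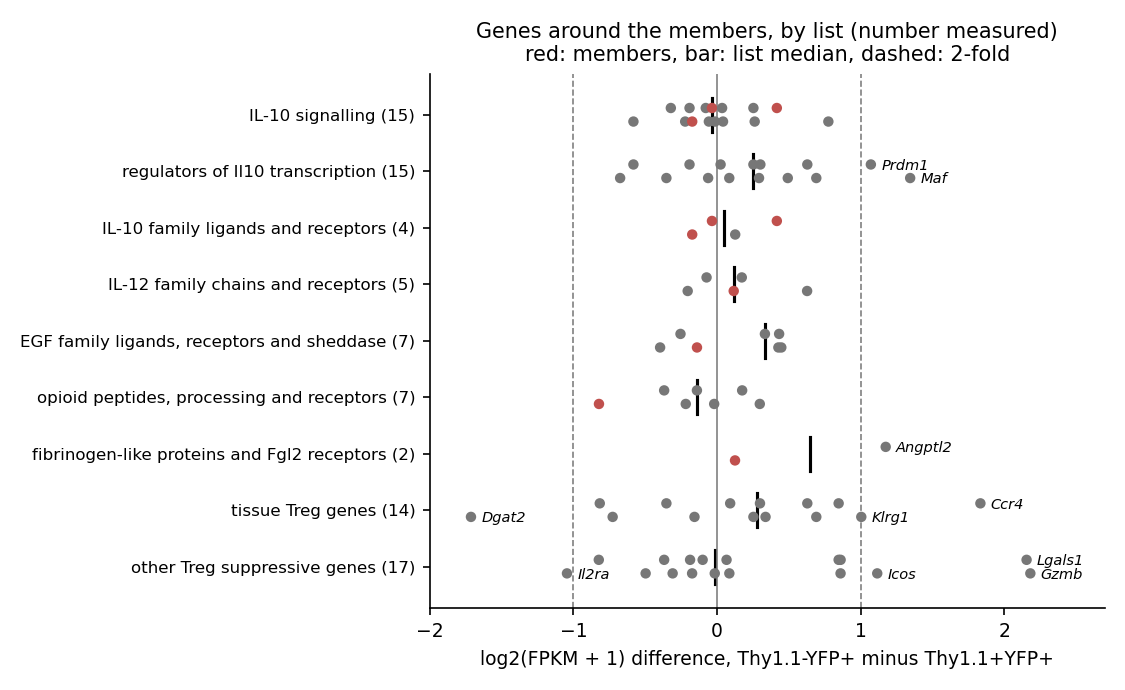
Differences in log2(FPKM + 1), Thy1.1-YFP+ minus Thy1.1+YFP+, of the assessed genes in 9 lists around the members (numbers in parentheses), with members in red, list medians as bars and dashed lines at 2-fold. Every red point lies inside the dashed lines, while Maf and Prdm1 among the regulators of Il10 lie beyond 1.

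Other suppressive genes of Treg cells went both ways. Of 17 such genes, 3 were past 2-fold with the higher value in Thy1.1-YFP+ cells and 1 with the lower value, with a median of -0.02. Gzmb (granzyme B), Lgals1 (galectin-1) and Icos (an inducible costimulator) had ratios of 5.53, 4.51 and 2.18, and Il2ra, a chain of the IL-2 receptor, a ratio of 0.482. Rescaled by the upper quartile, 6 of the 17 were 2-fold higher and 0 were 2-fold lower, but that scaling moved all genes up. Among all 12820 assessed genes it changed the counts from 247 higher and 148 lower to 398 and 82. With the deposited values, 1.93% of all assessed genes were 2-fold higher and 1.15% were lower. These are the shares to set beside this list and the others. Of 15 genes of tissue Treg cells, 14 could be assessed, and 2 were 2-fold higher and 1 was 2-fold lower. Ccr4 and Klrg1, a chemokine receptor gene and a gene of differentiated effector cells, had ratios of 3.90 and 2.07. For Dgat2, a triglyceride synthesis gene, the ratio was 0.277. Klrg1, with a log2 difference of 1.004, lay at the threshold. It was no longer 2-fold if 5 was added in place of 1 or the libraries were rescaled to the same sum (0.994). The same held if values were centred on the median gene or rescaled without the 100 highest genes. In each of these settings 1 gene of this list was 2-fold higher.

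Both libraries carried Treg transcripts, with Foxp3 at 158 FPKM in the Thy1.1-YFP+ library and 237 FPKM in the Thy1.1+YFP+ library. Markers of other cells able to make these mediators were low and mostly somewhat higher in the Thy1.1-YFP+ library, as Il10 was. Of 9 B cell markers, 6 were below a mean FPKM of 1, and the summed level was 15.1 FPKM in the Thy1.1-YFP+ library and 9.72 FPKM in the Thy1.1+YFP+ library. Of 10 myeloid markers, 7 were below that filter, and the sum was 79.1 against 61.2 FPKM, most of it Cst3, at 63.5 and 50.1 FPKM. Itgam, a myeloid integrin gene also found on activated lymphocytes, stood at 4.17 and 0.272 FPKM, while Lyz2, Csf1r and Adgre1 were each below 0.3 FPKM in both. The 8 dendritic cell markers summed to 5.52 and 4.46 FPKM, the 5 plasma cell markers to 6.01 and 4.82 FPKM, and the 6 natural killer and innate lymphoid markers to 7.60 and 4.65 FPKM. The 6 mast cell and basophil markers summed to 1.97 and 4.30 FPKM, a difference that came mostly from Kit, at 1.17 and 3.28 FPKM, and the other 5 were below the filter. Of all these markers, Fcrla and Ccl22 were listed at 0 in the Thy1.1+YFP+ library and Ncr1 in the Thy1.1-YFP+ library. Their part in the differences of Il10 and Penk was not tested.

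The labels do not say whether counting used strand, and 5 of the 8 members overlap another annotated gene. For Penk the opposite-strand A830012C17Rik stood at 0.0972 and 0.0969 FPKM in the Thy1.1-YFP+ and Thy1.1+YFP+ libraries. For Ebi3 the antisense gene Gm16712 stood at 0.853 and 0.686 FPKM, and for Fgl2 the opposite-strand Ccdc146 stood at 1.63 and 1.87 FPKM. Il10ra overlaps Gm20612, a pseudogene at 1.14 and 1.37 FPKM, and Mir7086, listed at 0 and 0.827 FPKM. Il10rb overlaps Gm21970, which was listed at 0 in both. Without strand, reads of the opposite-strand pairs cannot be told apart where their exons overlap. Mir7086 and Gm21970 lie on the same strand as the member they overlap, so strand would not separate their reads.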

How the data were processed

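RNA was sequenced from 2 sorted populations, 1 library each, built from 3 µg of total RNA of cells sorted to a purity typically above 97%, per the labels' protocols. The authors deposited FPKM values per Ensembl gene. Columns were matched to samples by reading P and N in their names as positive and negative for Thy1.1. Upstream, per the submitters' processing notes, stood Bowtie2 2.2.3, TopHat2 2.0.12 and HTSeq 0.6.1 on build mm9. Strand, filters and the gene length used: not given in the sources.

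Symbols came from GENCODE M21 (GRCm38) for 40254 of 41592 IDs, and promoter windows from RefSeq on GRCm38.p6. No count model was used. Reads were recovered because, for all 23442 genes above 0 in both libraries, FPKM ratios were whole-number ratios times a common factor (largest relative residual 1.4e-14, tolerance 1e-10). Totals came from 570 genes whose values fitted their summed exon length, and each gene's reads were the multiple closest to its annotated mean transcript length, which was within 1 base for 5 of the 8 members. These steps were tested on simulated reads. Exact Clopper-Pearson intervals (ratios) and Poisson intervals (levels) at 95% cover counting error only. PCR duplicates are not independent molecules.

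The size rule was a log2(FPKM + 1) difference of at least 1 at a mean FPKM of at least 1. The members and the gene lists were chosen with earlier results of these data known. All members were named, then list genes past the rule, otherwise each list's highest and lowest, and known partners. Markers named were chosen after their values were seen. Alternatives covered pseudocount, filter, fold rule and scaling. Python 3.11.15, numpy 2.4.6, pandas 2.3.3 and scipy 1.17.1 were used.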

Additional observations from a re-analysis of the deposited data

How the results depend on the processing

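The count of members at least 2-fold higher, 0, was the same under all 10 alternatives, and the count at least 2-fold lower, 0, became 1 (Penk) with a 1.5-fold rule and was 0 under the other 9. Il10, Ebi3 and Fgl2 stayed above 0 and Penk below 0 under every pseudocount and scaling tried, from 0.38 to 0.67 for Il10 and from -0.86 to -0.57 for Penk. Areg, Il10ra and Il10rb turned sign after rescaling by the upper quartile, to 0.11, 0.21 and 0.07, a scaling that moved the median of all assessed genes up by 0.23. Relative to the median gene these 3 then stood at -0.15, -0.05 and -0.18. Rescaling a library shifts all genes by nearly the same amount, so these relative values could hardly change and are no further check. The sign of Il12a, with 1 read per library, also depended on the scaling, from -0.03 to 0.01. Across all assessed genes, 247 were 2-fold higher and 148 lower. These counts were 402 and 293 with a pseudocount of 0.1, 72 and 19 when it was 5, 107 and 60 for genes averaging 5 FPKM or more, and 398 and 82 after rescaling by the upper quartile. They were 745 and 493 with a 1.5-fold rule and 31 and 9 with a 4-fold rule. The use of summed exons as gene length was chosen after seeing the data. No paired analysis was possible because each group has 1 library, and for the same reason no library could be left out.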

Other observations

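Beyond the lists described, the remaining members of the IL-10 cytokine family were close to silent in both libraries. Of 14 family ligands and receptor chains, 10 had a mean FPKM below 1, and the highest single value among these was 0.409 FPKM. Ifnl2 and Il22ra1 were listed at 0 in both. Besides the IL-10 gene and its receptor chains, Il20rb, a receptor chain for IL-20 and IL-24, was the family member that passed the filter. It stood at 5.88 FPKM in the Thy1.1-YFP+ library and 5.30 FPKM in the Thy1.1+YFP+ library, a ratio of 1.11 (0.891 to 1.38).

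Among 7 genes of fibrinogen-like proteins and Fc receptors, 2 could be assessed, Fgl2 and Angptl2. The genes of 2 Fc receptors that bind FGL2, Fcgr2b and Fcgr3, were below the filter. They had 3 and 1 reads and 13 and 3 reads in the Thy1.1-YFP+ and Thy1.1+YFP+ libraries. Their ratios were 3.01 (0.242 to 158) and 4.35 (1.19 to 23.8). Angptl2, an angiopoietin-like gene related to Fgl2, was the list's gene past the 2-fold rule, at 14.3 against 5.80 FPKM, a ratio of 2.47 (2.17 to 2.82). With a pseudocount of 5 its log2 difference was 0.84 and no longer 2-fold. Fgl2 itself differed by 0.12 on that scale with a pseudocount of 1.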
